A study of Homo sapiens with 8 samples.

Results

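The response to sertraline was examined inside Hep3B, an established human hepatocellular carcinoma cell line, in 4 of the 8 libraries of the study. Libraries given sertraline were set against libraries without it in 2 pairs: sertraline against control, and XL413_sertraline against XL413. Each treatment had 1 library, so there were 2 libraries on each side, and XL413 (yes or no) entered the model as a block. A gene was counted as changed only when its adjusted p was under 0.05 and both pairs moved in the same direction. The other 4 libraries were the same treatments in Huh7, another liver cancer line, and were used to ask where Hep3B differed from it and, with a Hep3B library left out, for the spread.

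XL413 is an inhibitor of CDC7, a kinase that fires licensed origins of DNA replication. It was given for 10 days, per the labels with the aim of making the cells senescent, and sertraline followed for 24 hours. The labels state that time for pretreated cells and give none for sertraline without XL413. The labels used here state no doses. Nothing in the labels says whether the 4 libraries came from separate cultures, so differences between these libraries may be technical. In the fit of the 4 libraries, a p-value sets the effect common to the 2 pairs against how far the pairs depart from it. That spread is moderated by the spread of other genes. A response that differs with XL413 is part of it, and it does not measure variation between repeats of a treatment. Each standard error (SE), given below after ±, was derived from the log2 change and its test statistic, so it is moderated too. An SE can therefore be far smaller than the gap between a gene's pairs. For IGFBP1 the SE was 0.28, though the log2 ratios were 2.08 with XL413 and 4.07 without. In RNA from bulk cells, a smaller number of cells of a kind cannot be told apart from less RNA in each of them.

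Sertraline, prescribed against depression, inhibits uptake of serotonin by its transporter. It is also a basic, fat-soluble molecule, a kind of drug known to collect in lysosomes, the acidic compartments that break down lipid, protein and sugar chains and release cholesterol to the rest of the cell. Cells that sense too little sterol in the endoplasmic reticulum release the transcription factors SREBF1 and SREBF2, which switch on the genes that make and import sterols and fatty acids. ATF4 is a transcription factor made when stressed cells slow translation, and it drives amino acid genes. YAP, held in check by contact and low tension, works with TEAD factors on genes of growth and adhesion.

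Total counts were 29695862 reads for sertraline, 28774946 for control, 30842770 for XL413_sertraline and 20275392 for XL413. Levels below are CPM, reads scaled to a fixed library total, after TMM scaling over the 4 libraries. Mitochondrial genes took 5.12% of reads after sertraline and 4.24% in control, and 4.14% in XL413_sertraline and 4.36% in XL413. Hepatocyte markers were abundant in all 4 libraries: ALB, serum albumin, had 20778 CPM after sertraline and 22118 CPM in control, with 15673 CPM in XL413_sertraline and 16177 CPM in XL413. Of 8 endothelial markers 1 passed the filter, of 8 immune markers 2, and of 8 fibroblast and stellate markers 4. Summed endothelial markers ranged from 0.851 to 0.899 CPM with sertraline and from 0.953 to 1.36 CPM without, immune markers from 46 to 89.2 and from 75.1 to 138 CPM, and fibroblast and stellate markers from 35.6 to 50.5 and from 45.9 to 47.8 CPM. LYZ, lysozyme, made up most of the immune sum and fell by 0.71 ± 0.11. Of the 4 fibroblast and stellate markers tested, LUM rose by 1.38 ± 0.16 while PDGFRB and PDGFRA fell by 1.05 ± 0.14 and 0.88 ± 0.16; the part of these cells' markers in the results below was not tested. VWF and TEK (endothelial) and ACTA2 (fibroblast and stellate) were at 0 in all 4 libraries.

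Of 15550 genes tested, 1757 rose after sertraline and 1718 fell, 11.3% and 11.0% of all genes (quasi-likelihood test of edgeR, p adjusted by Benjamini-Hochberg and under 0.05, both pairs in the same direction). The count was 5412 genes at an unadjusted p under 0.05. Only 1 further gene passed the adjusted p with its pairs in opposite directions. In 3110 of the 3475 called genes both sertraline libraries lay beyond both libraries without the drug, and in 365 the libraries overlapped. The same 4 libraries gave the calls, so such separation, here and below, only describes called genes and adds no support. Its share over all genes tested was not counted. Most changes were small: 1766 called genes changed by less than 1.5-fold, while 477 rose and 222 fell by more than 2-fold. The list of calls rested on the 4 libraries together. With a Hep3B library left out only 1 pair remains, so the rule on direction does not apply to those counts, here and below. With the control or the sertraline library left out, which leaves the XL413 pair and takes the spread from Huh7, 1494 and 1454 genes were called. Without the XL413 or the XL413_sertraline library, which leaves the other pair, 4724 and 4680 were called.

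Across all genes tested, 11784 (75.8%) had the same direction in the pair with XL413 and the pair without it. These pairs share no library. Their log2 ratios correlated with Pearson's r = 0.75 over 15550 genes, and with r = 0.85 over the 10038 genes whose mean log2 CPM was 3 or more; genes are not independent replicates and no p is given. In both pairs at once, 165 genes were more than 2-fold higher and 58 more than 2-fold lower.

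**Figure D1:**
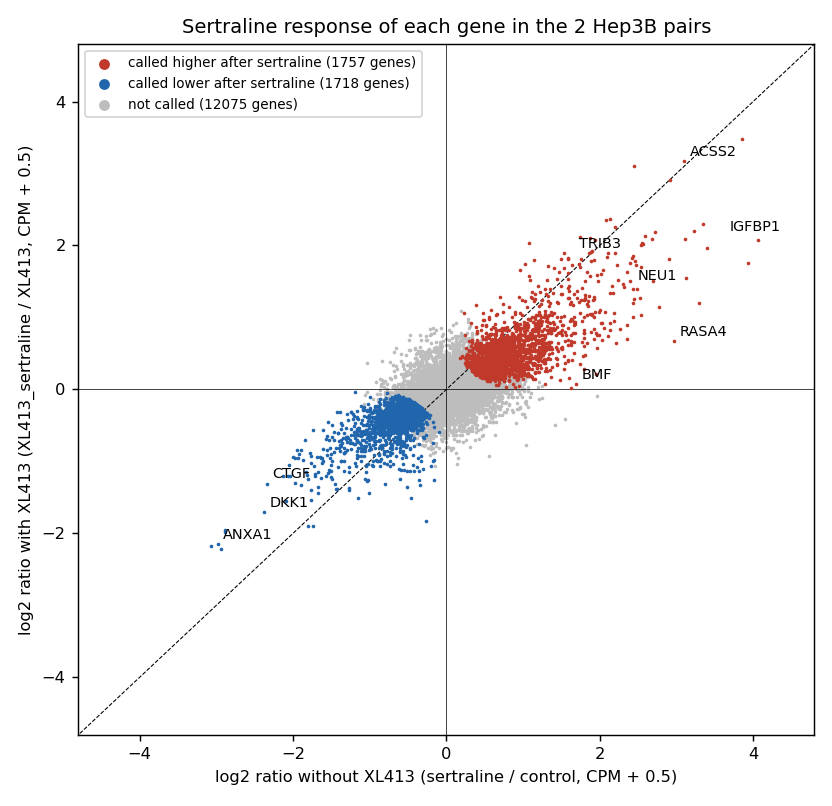
Each point is 1 of 15550 genes, with its log2 ratio of CPM + 0.5 for sertraline over control on the x axis and for XL413_sertraline over XL413 on the y axis; the dashed line marks equal ratios. The 1757 genes called higher lie in the upper right and the 1718 called lower in the lower left, along a line that gives r = 0.75 over all genes.

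The genes that make cholesterol rose almost as a block. Of 20 members tested, 19 rose and none fell, with a median log2 change of 1.66, against 0.00 over all genes; 17 of them rose more than 2-fold. HMGCS1, the synthase at the head of the pathway, had 2726 CPM after sertraline and 969 CPM in control, and 1483 CPM in XL413_sertraline and 422 CPM in XL413. Both sertraline libraries lay above both others, and the log2 change was 1.65 ± 0.13 (SE; edgeR adjusted p = 9.00e-08). MVD, which makes the isopentenyl building block, stood at 434 and 278 CPM in the sertraline and XL413_sertraline libraries, against 94.2 and 57.9 CPM in control and XL413. Its log2 change of 2.23 ± 0.11 (edgeR adjusted p = 3.59e-10) was the largest of the pathway, followed by LSS, the cyclase that closes the sterol rings (2.22 ± 0.12). MVK, the kinase upstream of MVD, rose by 1.93 ± 0.12, and SQLE, squalene epoxidase, by 1.52 ± 0.12. PMVK was the member not called, at 47.1 and 29.6 CPM with sertraline and 35.2 and 25.8 CPM without. The count was 19 or 20 with any 1 of the 4 libraries left out and 19 by DESeq2.

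The promoter of MVD is shown because MVD had the largest change of the pathway and carries the motif most common in this list among those searched. The sequence is from RefSeq (GRCh38.p14, chr16:88663092-88663341, minus strand), the 250 bases before the annotated start, with CCAAT or its reverse complement ATTGG in capitals.
MVD: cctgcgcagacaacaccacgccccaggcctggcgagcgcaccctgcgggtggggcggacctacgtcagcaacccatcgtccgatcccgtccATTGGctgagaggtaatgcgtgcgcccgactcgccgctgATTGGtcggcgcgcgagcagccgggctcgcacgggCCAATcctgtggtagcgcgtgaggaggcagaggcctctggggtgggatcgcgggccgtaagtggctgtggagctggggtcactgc
It holds 3 CCAAT boxes. In windows of 300 bases, 250 before and 50 after a start, searched on both strands and at any listed start of a gene, 13 of 15 sterol synthesis genes with a RefSeq promoter had a CCAAT box (86.7%), against 39.7% of 27305 genes. The letters TCACNCCAC, a sterol regulatory element, were found in 0 of the 15, against 1.39% of all genes. CCAAT shares in the other lists with promoters ranged from 17.2% to 90%. The 27305 genes, against which motif shares are set here and below, were not limited to the genes tested. A match describes the letters only, and no match says only that these letters are not in this window.

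Genes that sense, import and hold sterols moved with the enzymes: 7 of 10 rose and 1 fell, with a median of 1.02. INSIG1, which holds the SREBF complex in the endoplasmic reticulum, had 375 CPM after sertraline against 85.2 CPM in control, and 146 CPM in XL413_sertraline against 27.8 CPM in XL413. Both sertraline libraries lay above both others, and it rose by 2.26 ± 0.11 (edgeR adjusted p = 3.59e-10). STARD4, a sterol carrier, rose by 2.01 ± 0.11 and NPC1L1, which takes up sterol from the cell surface, by 1.26 ± 0.11. The SREBF genes themselves rose less, SREBF2 by 0.80 ± 0.11 and SREBF1 by 0.32 ± 0.11. MYLIP, a ubiquitin ligase driven by the sterol sensor LXR, fell by 0.81 ± 0.18 on the log2 scale, at 3.8 and 3.87 CPM with sertraline against 6.52 and 6.91 CPM without. Of 5 LXR and efflux genes tested, LPCAT3 rose by 0.39 and ABCA1, the pump that exports cholesterol, fell by 0.31; the libraries of ABCA1 overlapped between treatments, and its call was lost with any 1 library left out.

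Fatty acid synthesis showed the same direction, with 13 of 15 members higher, none lower and a median of 1.24. ACSS2 makes acetyl-CoA from acetate. It had 707 CPM after sertraline against 82.1 CPM in control, and 278 CPM in XL413_sertraline against 30.5 CPM in XL413. With a log2 change of 3.15 ± 0.11 (edgeR adjusted p = 5.44e-12), about 3.1 in each pair alone (3.17 with XL413 and 3.10 without), it was the largest rise of the list. FASN, fatty acid synthase, reached 7533 and 3208 CPM with sertraline, against 1609 and 970 CPM without. SCD, which puts the double bond into palmitate and stearate, reached 10739 and 5906 CPM, against 2935 and 1376 CPM. Their log2 changes were 1.98 ± 0.16 and 1.99 ± 0.17. FADS2, a desaturase, rose by 1.89 ± 0.14 and ELOVL6, an elongase, by 1.84 ± 0.11. ELOVL1 and ACSL3 were not called.

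Storage genes were more mixed, with 7 of 18 higher, 1 lower and a median of 0.31. LPIN1, a phosphatidate phosphatase, rose by 2.41 ± 0.13, PNPLA3, a lipid droplet lipase, by 1.75 ± 0.11, and the droplet proteins PLIN4 and PLIN5 by 1.06 ± 0.13 and 1.08 ± 0.19. PLIN2, a droplet coat protein, had 348 and 704 CPM with sertraline and 348 and 612 CPM without, and was not called.

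**Figure D2:**
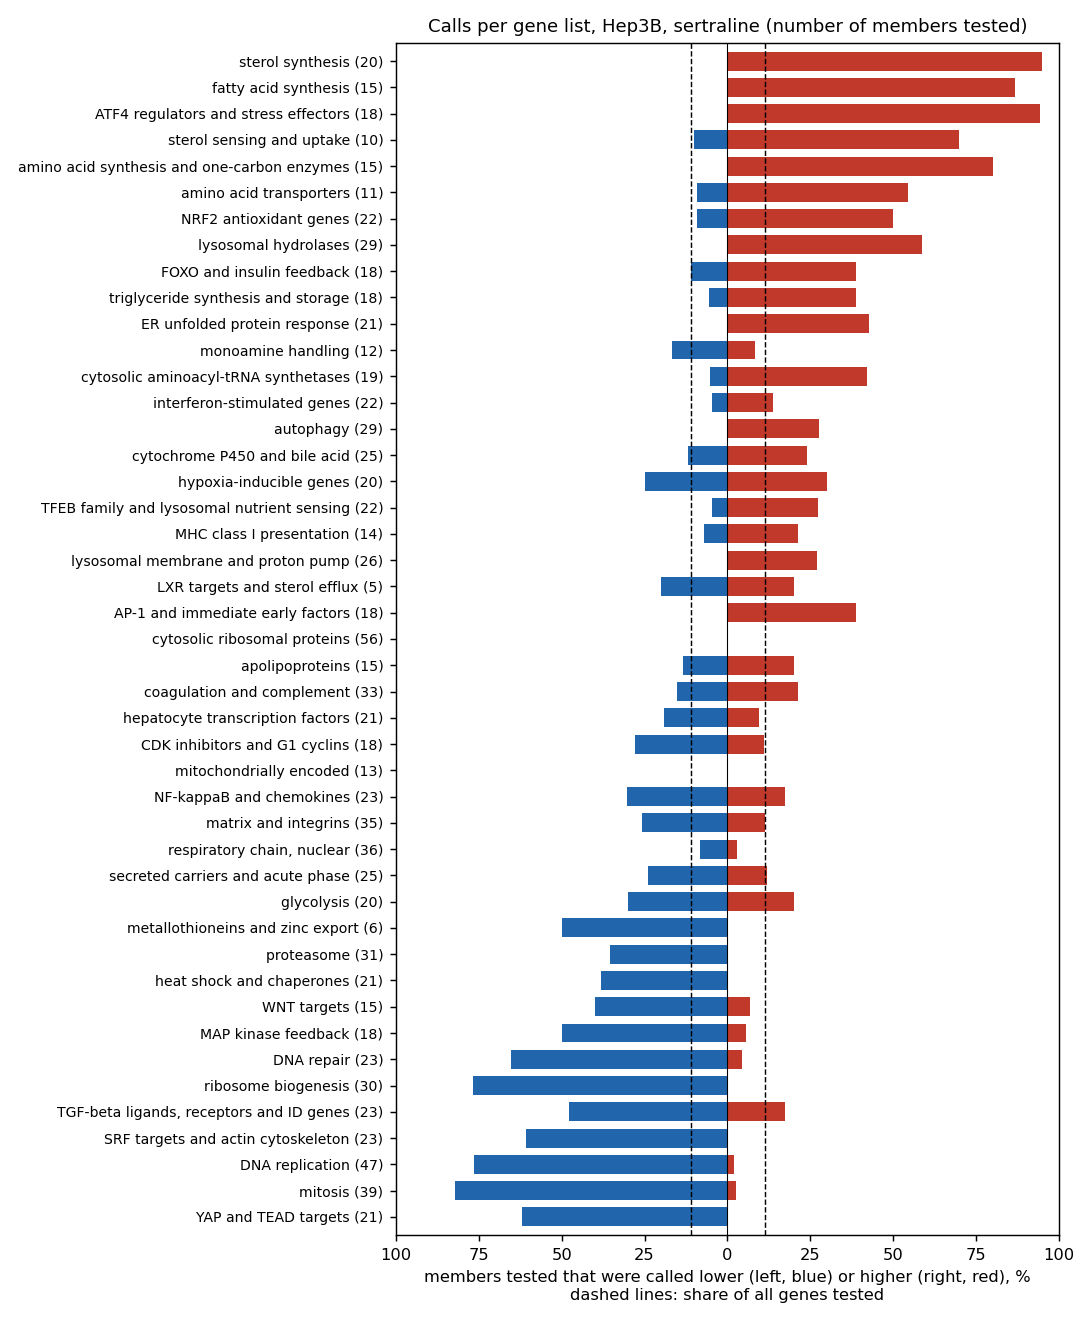
For each gene list, bars give the percentage of tested members called lower (left) and higher (right) after sertraline in Hep3B, ordered by median log2 change; dashed lines mark the shares over all genes, 11.0% lower and 11.3% higher. Sterol synthesis, fatty acid synthesis and ATF4 regulators fill the right side at the top, and mitosis, DNA replication, ribosome biogenesis and YAP and TEAD targets the left side at the bottom.

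The ATF4 stress response was the other large rise. Of 18 regulators and effectors, 17 rose and none fell, with a median of 1.09; ATF5 was the member not called (log2 change -0.01). ATF4 itself had 718 CPM after sertraline against 289 CPM in control, and 427 CPM in XL413_sertraline against 274 CPM in XL413, a log2 change of 0.98 ± 0.14. TRIB3, a pseudokinase that dampens AKT and ATF4 (GRCh38, chromosome 20, 362835 to 397559), had 584 and 359 CPM with sertraline and 136 and 100 CPM without, a log2 change of 1.97 ± 0.11 (edgeR adjusted p = 1.31e-09). Sertraline libraries lay above the others for all 17 called members. Libraries with and without the drug were also separate in 3110 of all 3475 called genes. ATF3, a stress-induced repressor, rose by 2.10 ± 0.14, DDIT4, an inhibitor of mTORC1, by 1.52 ± 0.15, CHAC1, which breaks down glutathione, by 1.47 ± 0.19 and DDIT3, the factor CHOP, by 1.45 ± 0.12.

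Downstream, amino acid synthesis and one-carbon enzymes had 12 of 15 members higher and none lower (median 0.67). The count was 7 with the control or the sertraline library left out, and 7 by DESeq2. PHGDH, the first enzyme of serine synthesis, had 326 CPM after sertraline against 83.6 CPM in control, and 242 CPM in XL413_sertraline against 142 CPM in XL413 (log2 change 1.36 ± 0.18). ASNS, asparagine synthetase, rose by 1.31 ± 0.13 and CTH, which makes cysteine, by 1.37 ± 0.23. Of 11 amino acid transporters 6 rose and 1 fell: SLC6A9, a glycine carrier, rose by 1.53 ± 0.18 and SLC7A11, the cystine carrier, by 1.24 ± 0.12, while SLC38A2 fell by 0.41 ± 0.11. Of 19 cytosolic aminoacyl-tRNA synthetases 8 rose and 1 fell (4 higher with the control or the sertraline library left out), with SARS at 0.86 ± 0.13. The FARSB subunit was the one that fell, by 0.34.

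The unfolded protein response of the endoplasmic reticulum, another branch of stress, was smaller: 9 of 21 members rose and none fell, with a median of 0.28 (5 rose with the control or the sertraline library left out). HERPUD1, part of the degradation complex, rose by 1.02 ± 0.12, ERN1, the stress sensor IRE1, by 0.92 ± 0.12, HYOU1, a chaperone, by 0.72 ± 0.11 and HSPA5, the chaperone BiP, by 0.39. CALR, XBP1 and DNAJB11 had log2 changes of 0.05, 0.03 and 0.02 and were not called.

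The promoter of ASNS is shown because it carries the composite element through which ATF4 is known to act on it. The sequence is from RefSeq (GRCh38.p14, chr7:97872409-97872658, minus strand), the 250 bases before 1 of 2 listed starts, with TGATGNAA in capitals.
ASNS: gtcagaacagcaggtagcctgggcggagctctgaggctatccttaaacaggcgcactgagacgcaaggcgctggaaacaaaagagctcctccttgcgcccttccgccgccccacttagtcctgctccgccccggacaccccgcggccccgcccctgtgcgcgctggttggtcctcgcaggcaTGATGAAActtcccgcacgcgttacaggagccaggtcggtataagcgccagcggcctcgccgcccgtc
The element lies at position -68 from the start site. It was found in 5 of 10 amino acid transporters (50%), 7 of 15 tRNA synthetases (46.7%), 3 of 10 amino acid enzymes (30%) and 4 of 16 ATF4 regulators (25%), against 4.46% of all genes, in the same windows and on both strands.

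Lysosomal enzymes also rose. Of 29 hydrolases 17 rose and none fell, with a median of 0.36; with the control or the sertraline library left out, 12 and 11 rose. NEU1, the lysosomal sialidase (GRCh38, chromosome 6, 31857659 to 31862906), had 3570 CPM after sertraline against 666 CPM in control, and 2135 CPM in XL413_sertraline against 602 CPM in XL413. Its log2 change was 2.12 ± 0.15 (edgeR adjusted p = 2.13e-08), and it supplied most of the gain in the summed level of the list (7979 and 6906 CPM with sertraline, against 3775 and 4414 CPM without). LIPA, which frees cholesterol from its esters in the lysosome, rose by 1.61 ± 0.11, ASAH1, acid ceramidase, by 0.86 ± 0.11, and SMPD1, acid sphingomyelinase, by 0.54 ± 0.11. Among membrane proteins and the proton pump 7 of 26 rose, with a median of 0.16: NPC1 and NPC2, which together carry cholesterol out of the lysosome, rose by 1.23 ± 0.11 and 0.93 ± 0.11. Of 29 autophagy genes 8 rose and none fell (5 with the control or the sertraline library left out), with WIPI1 at 1.10 ± 0.13 and SQSTM1, the receptor p62, at 0.71 ± 0.12. RRAGD, a GTPase that ties the lysosome to mTORC1, rose by 1.44 ± 0.13 and FLCN, its regulator, by 0.68 ± 0.11. Of 22 genes of the TFEB and nutrient sensing group 6 rose and 1 fell, with a median of 0.18. The shares over all genes tested were 11.3% higher and 11.0% lower. TCACGTGA, the CLEAR element bound by TFEB, was in the promoter windows of 2 of 18 hydrolases (11.1%) and 4 of 19 membrane genes (21.1%), against 1.18% of all genes.

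IGFBP1, a liver-secreted binder of insulin-like growth factors that insulin represses through FOXO, was the largest rise among genes whose mean log2 CPM was 3 or more. It had 137 CPM after sertraline against 7.7 CPM in control, and 30.4 CPM in XL413_sertraline against 6.81 CPM in XL413, a log2 change of 3.25 ± 0.28 (edgeR adjusted p = 1.63e-07). The call was lost under robust empirical Bayes (adjusted p = 0.219), and the log2 ratio was 2.08 with XL413 and 4.07 without. Of 18 FOXO and insulin feedback genes 7 rose and 2 fell, against 11.3% higher and 11.0% lower over all genes tested. IRS2, the insulin receptor substrate, rose by 0.76 ± 0.14 and PCK2, the mitochondrial carboxykinase, by 1.40 ± 0.18. TXNIP, a glucose-induced inhibitor of glucose uptake, fell by 0.65 ± 0.11. Other large rises were SLCO4C1, an organic anion carrier (2.80 ± 0.17), TUBB2B, a beta tubulin with close paralogs that share reads (2.63 ± 0.17), SV2A, a vesicle glycoprotein (2.53 ± 0.14), HES6, a transcription cofactor (2.42 ± 0.18), and PFKFB4, a glycolytic regulator (2.23 ± 0.15).

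**Figure D3:**
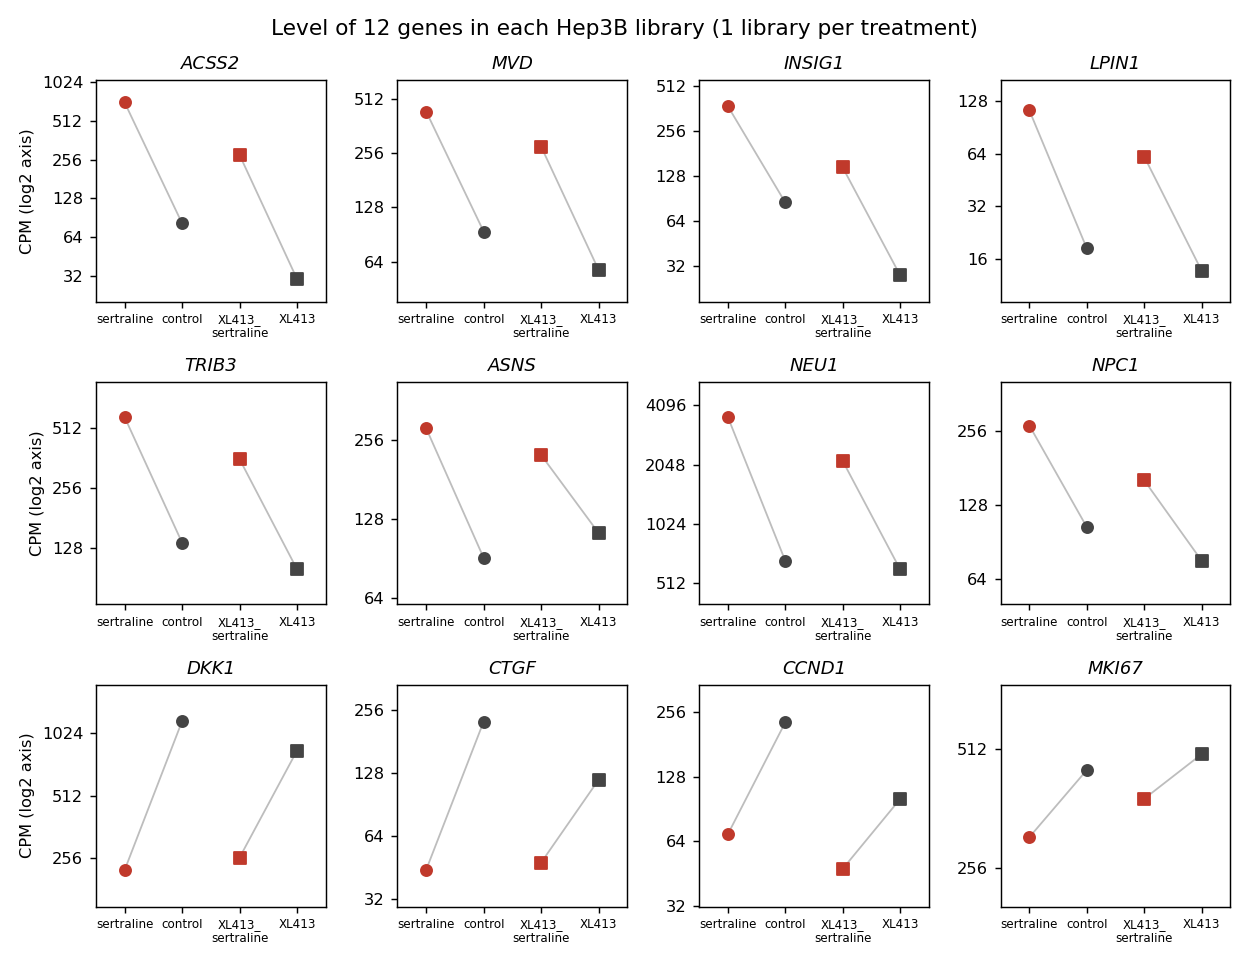
Each panel gives 1 gene's level in CPM on a log2 axis in the sertraline, control, XL413_sertraline and XL413 libraries of Hep3B, 1 point per library, with the members of a pair joined. In the 8 upper panels both sertraline libraries (red) lie above both others (grey), as in ACSS2 at 707 and 278 CPM against 82.1 and 30.5 CPM, and in the 4 lower panels, as in CTGF, they lie below.

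Genes of cell division fell. Of 47 genes of DNA replication 36 fell and 1 rose, with a median of -0.49, and of 39 genes of mitosis 32 fell and 1 rose, with a median of -0.54. The falls were modest: 2 replication genes, CCNE2 and E2F8, and none of mitosis fell by more than 2-fold. RRM2, the ribonucleotide reductase subunit that feeds DNA synthesis, had 81 CPM after sertraline against 195 CPM in control, and 102 CPM in XL413_sertraline against 166 CPM in XL413 (log2 change -0.99 ± 0.12). CCNE2, an S-phase cyclin, fell by 1.09 ± 0.15 and MCM10, which helps load the replicative helicase, by 0.91 ± 0.14 on the log2 scale. KIF23, a motor of cytokinesis, fell by 0.80 ± 0.11, MAD2L1, a spindle checkpoint protein, by 0.79 ± 0.11 and CDK1 by 0.64 ± 0.11. CDT1, a licensing factor, and CDC25C, a mitotic phosphatase, were the members that rose, by 0.41 ± 0.14 and 0.45 ± 0.13.

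CDC7, the kinase that XL413 inhibits, had 14.8 and 17.8 CPM with sertraline, against 25.6 and 23.2 CPM without, and fell by 0.59 ± 0.14 (edgeR adjusted p = 0.00463). MKI67, the marker of cycling cells, had 306 and 383 CPM with sertraline, against 453 and 497 CPM without, and fell by 0.47 ± 0.11 (edgeR adjusted p = 0.00472). Neither was called with the control or the sertraline library left out (CDC7 adjusted p = 0.125 and 0.103, MKI67 adjusted p = 0.131 and 0.0868). Those same omissions left 16 and 17 replication genes lower and 24 and 25 of mitosis. Of 23 DNA repair genes 15 fell and 1 rose (5 and 6 fell with those libraries left out), with CLSPN, a checkpoint mediator, at -0.86 ± 0.14. Among regulators of the G1 phase, CCND1, cyclin D1, fell by 1.41 ± 0.13, with 69.1 and 47.7 CPM with sertraline against 230 and 101 CPM without. CDKN1A, the inhibitor p21, rose by 1.23 ± 0.17, with 15.6 and 20.5 CPM against 5.16 and 10.9 CPM.

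Promoters of CDC7 and MKI67 are shown because CDC7 holds the E2F site and MKI67 the cell cycle homology region, motifs that were more frequent in the replication and mitosis lists than in all genes. Both sequences are from RefSeq (GRCh38.p14), the 250 bases before a listed start: CDC7 at chr1:91500601-91500850, plus strand, with GGCGGGAA (an E2F site) in capitals, and MKI67 at chr10:128126424-128126673, minus strand, with TTTGAA (the cell cycle homology region) in capitals.
CDC7: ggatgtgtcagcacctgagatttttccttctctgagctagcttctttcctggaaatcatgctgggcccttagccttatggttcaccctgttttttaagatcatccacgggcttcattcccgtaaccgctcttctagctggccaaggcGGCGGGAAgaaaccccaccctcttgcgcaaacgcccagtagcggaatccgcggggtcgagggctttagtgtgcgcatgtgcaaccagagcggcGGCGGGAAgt
MKI67: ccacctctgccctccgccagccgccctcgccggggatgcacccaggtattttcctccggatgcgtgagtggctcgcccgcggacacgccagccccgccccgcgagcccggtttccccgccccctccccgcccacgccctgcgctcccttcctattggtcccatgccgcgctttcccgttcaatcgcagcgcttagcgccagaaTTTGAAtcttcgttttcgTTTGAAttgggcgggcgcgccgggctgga
Each holds 2 matches. On both strands, GGCGGGAA was in the windows of 12 of 39 replication genes (30.8%) and 7 of 20 repair genes (35%), against 3.79% of all genes and 6.06% of the mitosis list. TTTGAA was in 23 of 33 mitosis genes (69.7%), against 18.2% of all genes and 5.13% of the replication list. CCAAT boxes were more frequent in both lists, in 21 of 39 replication genes (53.8%) and 27 of 33 mitosis genes (81.8%), against 39.7% of all genes.

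Most YAP and TEAD targets and most actin cytoskeleton genes fell. Of 21 YAP targets 13 fell and none rose (median -0.60), and of 23 SRF and actin genes 14 fell and none rose (median -0.44; 6 and 10 fell with the control and the sertraline library left out). CTGF, a matrix-associated growth factor (GRCh38, chromosome 6, 131948176 to 131951373), had 44.3 CPM after sertraline against 226 CPM in control, and 47.9 CPM in XL413_sertraline against 119 CPM in XL413. It fell by 1.83 ± 0.17 (edgeR adjusted p = 3.17e-07), and CYR61, of the same family, by 1.49 ± 0.17. CRIM1, AMOTL2 and NUAK2, also YAP targets, fell by 1.18 ± 0.13, 0.99 ± 0.13 and 1.07 ± 0.15. TAGLN, a smooth muscle actin binder, fell by 1.71 ± 0.13, TPM1, a tropomyosin, by 1.06 ± 0.13 and FLNA, filamin, by 0.69 ± 0.11. ACTB, beta actin, which has many processed pseudogenes that share reads, had 2262 and 2824 CPM with sertraline against 5171 and 4492 CPM without, and fell by 0.93 ± 0.16.

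The CTGF promoter (CCN2 in RefSeq, GRCh38.p14, chr6:131951373-131951622, minus strand) is shown because it carries several TEAD sites. The capitals mark GGAATG, the reverse complement of CATTCC.
CTGF: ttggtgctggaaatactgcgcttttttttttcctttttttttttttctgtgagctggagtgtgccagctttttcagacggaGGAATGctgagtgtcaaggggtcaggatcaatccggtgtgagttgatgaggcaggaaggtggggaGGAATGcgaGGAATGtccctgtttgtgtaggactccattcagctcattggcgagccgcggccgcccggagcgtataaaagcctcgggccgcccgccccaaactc
The 3 matches lie at positions -169, -104 and -95 from the start site. CATTCC was found on either strand in 11 of 18 YAP targets (61.1%) and 8 of 19 SRF and actin genes (42.1%), against 16.7% of all genes.

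Lists of WNT, MAP kinase, TGF-beta and NF-kappaB genes held more falls than rises. Over all genes tested 11.3% rose and 11.0% fell. DKK1, a secreted WNT inhibitor, had 224 CPM after sertraline against 1168 CPM in control, and 257 CPM in XL413_sertraline against 842 CPM in XL413; it fell by 2.05 ± 0.14 (edgeR adjusted p = 1.24e-08). Among 15 WNT targets 6 fell and 1 rose: LGR5, the stem cell receptor, fell by 0.90 ± 0.13, while GLUL, glutamine synthetase, rose by 0.70 ± 0.16. Of 18 MAP kinase feedback genes 9 fell and 1 rose (6 fell with the control or the sertraline library left out). SPRY1, an inhibitor of receptor signals, fell by 1.23 ± 0.14 and DUSP6, the ERK phosphatase, by 1.03 ± 0.15. Of 23 TGF-beta and BMP genes 11 fell and 4 rose: BMP2 fell by 1.52 ± 0.14 and ID1, a target of BMP signals, by 1.28 ± 0.12, while GDF15 and INHBE, both also in the ATF4 list, rose by 1.04 ± 0.11 and 1.33 ± 0.13. CXCL1, CXCL5, CXCL6, CXCL8 and CCL20, chemokines, were 5 of 7 genes that fell among 23 of the NF-kappaB list (4 without the control library). RELB, TNFAIP3, ICAM1 and NFKB2 of that list rose.

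Among the largest falls were ANXA1, a phospholipid-binding protein (1.53 and 2.76 CPM with sertraline against 15.4 and 13.9 CPM without; log2 change -2.78 ± 0.21), SLC2A3, a glucose carrier (-2.54 ± 0.20), CCDC80, a matrix protein (-1.88 ± 0.15), CXCR4, a chemokine receptor (-1.77 ± 0.20), PCDH9, a cadherin (-1.70 ± 0.16), JAG1, a Notch ligand (-1.62 ± 0.15), TNFRSF11B, a decoy receptor (-1.61 ± 0.17), and SLC1A3, a glutamate carrier (-1.57 ± 0.17). At low levels, NPPB, a natriuretic peptide, had 0.638 and 2.54 CPM with sertraline against 9.07 and 13.2 CPM without. EDN1, endothelin, had 0.603 and 0.713 CPM against 7.99 and 5.15 CPM. In these 10 genes both sertraline libraries lay below both others. Such separation, in either direction, held for 3110 of all 3475 called genes.

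Most ribosome biogenesis genes and a minority of chaperone and proteasome genes fell, with few or no calls in the XL413 pair alone. Of 30 ribosome biogenesis genes 23 fell and none rose (median -0.40), with BOP1, a pre-rRNA processing factor, at -0.62 ± 0.11 and NCL, nucleolin, at 996 and 823 CPM with sertraline against 1553 and 984 CPM without. With the control or the sertraline library left out 1 fell, and without the XL413 or the XL413_sertraline library 25 and 24. Of 21 chaperones 8 fell (0 with the control or the sertraline library left out, 11 and 10 without the XL413 and the XL413_sertraline library). Of 31 proteasome genes 11 fell, with the counts 0, 0, 18 and 18 under those 4 omissions. None of the 56 cytosolic ribosomal proteins or 13 mitochondrially encoded genes was called by edgeR, with 4 and 0 at an unadjusted p under 0.05, and DESeq2 called 0 in both; 6 ribosomal proteins were called higher without the XL413 or the XL413_sertraline library. Ribosomal proteins share reads with many pseudogenes. NRF2 antioxidant genes had 11 of 22 higher and 2 lower (6 and 7 higher with the control and the sertraline library left out). The shares over all genes tested were 11.3% higher and 11.0% lower. OSGIN1, a growth inhibitor, rose by 1.01 ± 0.13 and PGD, which makes NADPH, by 0.59 ± 0.12. NFE2L2, the NRF2 gene, fell by 0.54 ± 0.12.

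Of 21 hepatocyte transcription factors 2 rose and 4 fell, and of 25 secreted carriers 3 rose and 6 fell. Among 33 coagulation and complement genes 7 rose and 5 fell. The shares over all genes were 11.3% higher and 11.0% lower. With the control and the sertraline library left out, the factors had 2 and 3 lower, the carriers 1 and 1 higher, and the coagulation genes 3 and 2 higher and 2 and 2 lower; without the XL413 or the XL413_sertraline library 3 carriers fell. TF, transferrin, rose by 0.75 ± 0.17, with 8094 and 5950 CPM with sertraline against 4197 and 4040 CPM without. AFP, the fetal serum protein, fell by 0.36 ± 0.12 (edgeR adjusted p = 0.0398), but its libraries overlapped, at 1067 and 730 CPM with sertraline and 1270 and 1015 CPM without. That call was lost with any 1 library left out (adjusted p from 0.362 to 0.551). SLC6A4, the serotonin transporter, had 1.14 and 1.15 CPM with sertraline and 0.824 and 0.762 CPM without and was not called (adjusted p = 0.268). Of 12 monoamine handling genes 1 rose and 2 fell; MAOB, which degrades amines, fell by 0.46 ± 0.11. MYC had 239 and 195 CPM with sertraline and 223 and 155 CPM without and was not called.

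AP-1 and immediate early factors had 7 of 18 members higher and none lower (4 with the control or the sertraline library left out), MAFF by 1.33 ± 0.15, JUND by 1.26 ± 0.12 and KLF4 by 1.23 ± 0.28, while FOS and EGR1 had log2 changes of 0.13 and -0.22 and were not called. KLF4 was low, at 2.48 and 1.92 CPM with sertraline against 1.15 and 0.715 CPM without. Matrix and integrin genes had 4 of 35 higher and 9 lower, against 11.3% higher and 11.0% lower over all genes. COL6A1 and COL6A2, chains of collagen VI, rose by 1.04 ± 0.18 and 1.03 ± 0.26, and LOX, which links collagen fibres, had a log2 change of -1.10 ± 0.16. The lower count was 4 and 5 with the control and the sertraline library left out. Hypoxia-inducible genes were split, with 6 of 20 higher and 5 lower (2 lower with the control or the sertraline library left out): VEGFA, the vascular growth factor, rose by 0.48 ± 0.11 and PFKFB3, a glycolytic regulator, fell by 1.20 ± 0.12.

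Glycolysis had 4 of 20 members higher and 6 lower (1 lower with the control or the sertraline library left out). ALDOC, an aldolase, had 246 and 181 CPM with sertraline against 66.7 and 47.9 CPM without, and rose by 1.90 ± 0.11; ENO2, an enolase, rose by 0.82 ± 0.14, and SLC2A2, the liver glucose carrier, fell by 1.33 ± 0.11. Interferon-stimulated genes had 3 of 22 higher and 1 lower, with IRF1, an interferon-induced factor, at 0.76 ± 0.15. MHC class I presentation had 3 of 14 higher and 1 lower. Over all genes tested 11.3% were higher and 11.0% lower. NLRC5, a class I transactivator, rose by 2.55 ± 0.37 at low levels. It had 1.38 and 2.67 CPM with sertraline against 0.179 and 0.524 CPM without. Fewer members of each list were higher with the control or the sertraline library left out. More class I genes were higher without the XL413 or the XL413_sertraline library. Of 15 apolipoproteins 3 rose and 2 fell (0 higher with the control or the sertraline library left out), and APOE rose by 0.43 ± 0.13. Of 25 cytochrome P450 and bile acid genes 6 rose and 3 fell (3 and 1 with those libraries left out), and CYP3A7 rose by 1.53 ± 0.21. MT2A, a metal-binding metallothionein with near-identical paralogs, fell by 0.96 ± 0.20, 1 of 3 lower among 6 metallothionein and zinc genes (1 with those libraries left out, 0 by DESeq2). Nuclear genes of the respiratory chain had 1 of 36 higher and 3 lower (0 and 0 with the control or the sertraline library left out).

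The size of the response differed between the pairs, which can be given only as values because each side has 1 library. Of genes whose mean log2 CPM was 3 or more, 38 had log2 ratios more than 1 apart: 27 had a lower ratio with XL413 and 11 a higher one. The median over all genes was -0.01 with XL413 and 0.01 without. Sterol synthesis had medians of 1.72 with XL413 and 1.55 without, and 15 of 20 members had the larger ratio with XL413. For the ATF4 regulators the medians were 0.81 with XL413 and 1.32 without, and all 18 had the smaller ratio with XL413. ATF4 itself had log2 ratios of 0.64 with XL413 and 1.31 without, and CHAC1 of 0.86 and 2.05 in the same order. In ribosome biogenesis the medians were -0.21 with XL413 and -0.62 without, and all 30 members had the larger log2 ratio with XL413. YAP targets had medians of -0.36 with XL413 and -0.73 without. The level from which a gene started differed too: ACSS2 had 30.5 CPM in XL413 and 82.1 CPM in control, and INSIG1 27.8 and 85.2 CPM.

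Among single genes, RASA4, a Ras inhibitor with near-identical copies that share reads, had 7.81 CPM in XL413_sertraline and 4.72 CPM in XL413, against 17.4 CPM after sertraline and 1.79 CPM in control. Its log2 ratios differed by -2.30 (with minus without XL413). BMF, a cell death activator, had 109 and 104 CPM in XL413_sertraline and XL413, and 97.2 and 29.8 CPM in sertraline and control, so its ratio of 0.07 with XL413 stood against 1.69 without. CTH, TSC22D3, a glucocorticoid-induced factor, and HDAC5, a deacetylase, had differences of -1.40, -1.26 and -1.24. Ratios higher with XL413, all smaller falls, were those of GPRC5A (by 1.11), GDA (1.09), ANKRD1 (1.07), CYR61 (1.06), CXCL5 (1.05) and PLK2 (1.04).

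**Figure D4:**
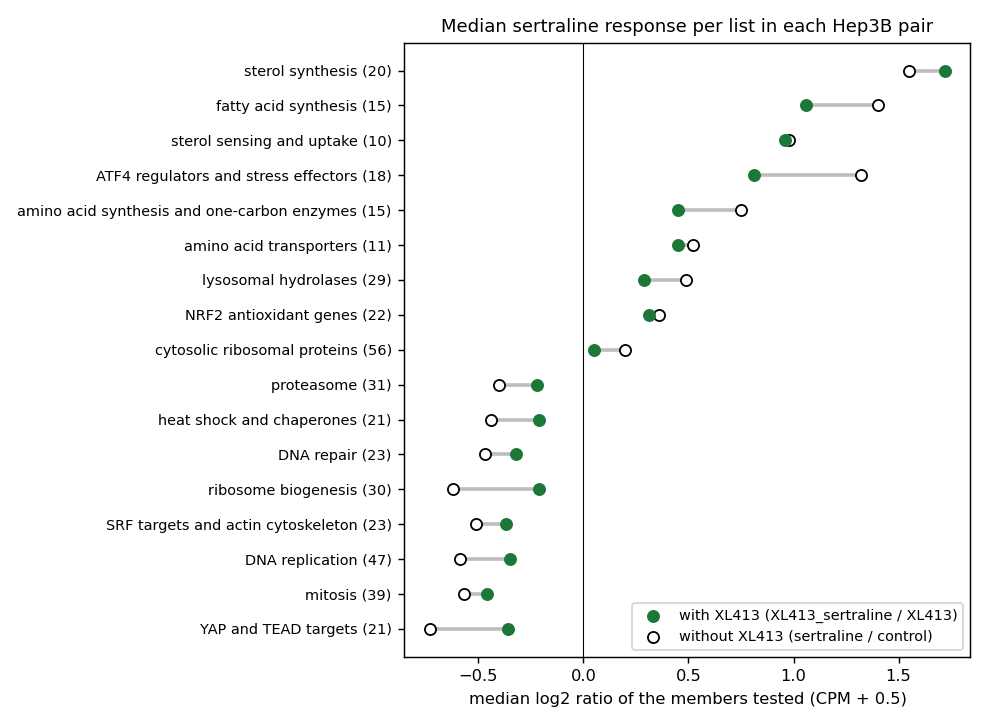
Points give the median log2 ratio of CPM + 0.5 over the tested members of 17 lists (numbers in brackets), filled for XL413_sertraline over XL413 and open for sertraline over control. The filled point lies closer to 0 for most lists, as in ribosome biogenesis at -0.21 against -0.62, and farther from 0 for sterol synthesis at 1.72 against 1.55.

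Huh7, tested over all 8 libraries with a line by sertraline term, showed where Hep3B differed. Of 16972 genes, 378 (2.23%) had a higher log2 change in Hep3B and 261 (1.54%) a lower one (edgeR, adjusted p under 0.05). The count depended on single libraries: it was 13, 14, 71 and 72 without the Huh7 control, sertraline, XL413 and XL413_sertraline library, and 1613 and 1581 without the Hep3B XL413 and XL413_sertraline library. Of the 3475 genes changed in Hep3B, 331 had a called difference, and 353 had an estimate of the other sign in Huh7. Of 23 SRF and actin genes 14 had the higher log2 change in Hep3B and none the lower, all of them smaller falls or no fall in Hep3B: the medians were -0.44 in Hep3B and -1.15 in Huh7. On CPM scaled over all 8 libraries, TAGLN had 13.7 and 8.96 CPM with sertraline in Hep3B against 47.9 and 27.1 CPM without, and 11.1 and 55 CPM with sertraline in Huh7 against 313 and 655 CPM without. Its log2 change was -1.71 ± 0.19 in Hep3B and -4.14 ± 0.20 in Huh7, a difference of 2.43 (edgeR adjusted p = 0.000117). MYL9, CSRP1 and TPM2, further actin-related genes, differed by 1.96, 1.55 and 1.57.

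A minority of sterol and fatty acid genes had a called difference between the lines, but a larger share than over all genes. The change was higher in Hep3B for 4 of 20 synthesis genes, 4 of 10 for sensing and uptake and 5 of 15 fatty acid genes. Over all genes the share was 2.23%. For 1 fatty acid gene it was lower. Medians in Hep3B and Huh7 were 1.66 and 1.15 for synthesis, 1.02 and 0.40 for sensing and uptake, and 1.24 and 0.94 for fatty acid genes. NPC1, the lysosomal cholesterol carrier, had 266 and 159 CPM with sertraline in Hep3B against 103 and 75 CPM without, and 147 and 161 CPM with sertraline in Huh7 against 119 and 124 CPM without. Its log2 change was 1.23 ± 0.10 in Hep3B and 0.34 ± 0.10 in Huh7 (edgeR adjusted p of the difference = 0.00203). SLC7A7, an amino acid carrier, had a log2 change of -0.06 ± 0.13 in Hep3B and -2.17 ± 0.13 in Huh7. GPC1, a glypican, was 0.49 ± 0.11 in Hep3B and -1.98 ± 0.23 in Huh7, where it had 0.22 to 4.46 CPM. CDKN1A rose in Hep3B (1.23 ± 0.17), with 0.12 ± 0.18 in Huh7 (adjusted p of the difference = 0.0205). Lower in Hep3B were the changes of lysosomal ASAH1 (0.86 ± 0.11 against 2.04 ± 0.11), of UAP1L1 (1.13 ± 0.11 against 2.64 ± 0.11) and of MYC (0.21 ± 0.10 against 0.96 ± 0.10). Lysosomal lists held more lower than higher changes in Hep3B: 2 and 0 of 29 hydrolases, 3 and 1 of 26 membrane genes, 5 and 1 of 22 TFEB group genes. The shares over all genes were 1.54% lower and 2.23% higher. In that order, the list medians in Hep3B and Huh7 were 0.36 and 0.40, 0.16 and 0.38, and 0.18 and 0.26. For the ATF4 genes TRIB3 and ASNS the estimates were 1.97 and 1.31 in Hep3B and 1.97 and 1.32 in Huh7; a p that misses the threshold does not show that the lines responded alike.

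**Figure D5:**
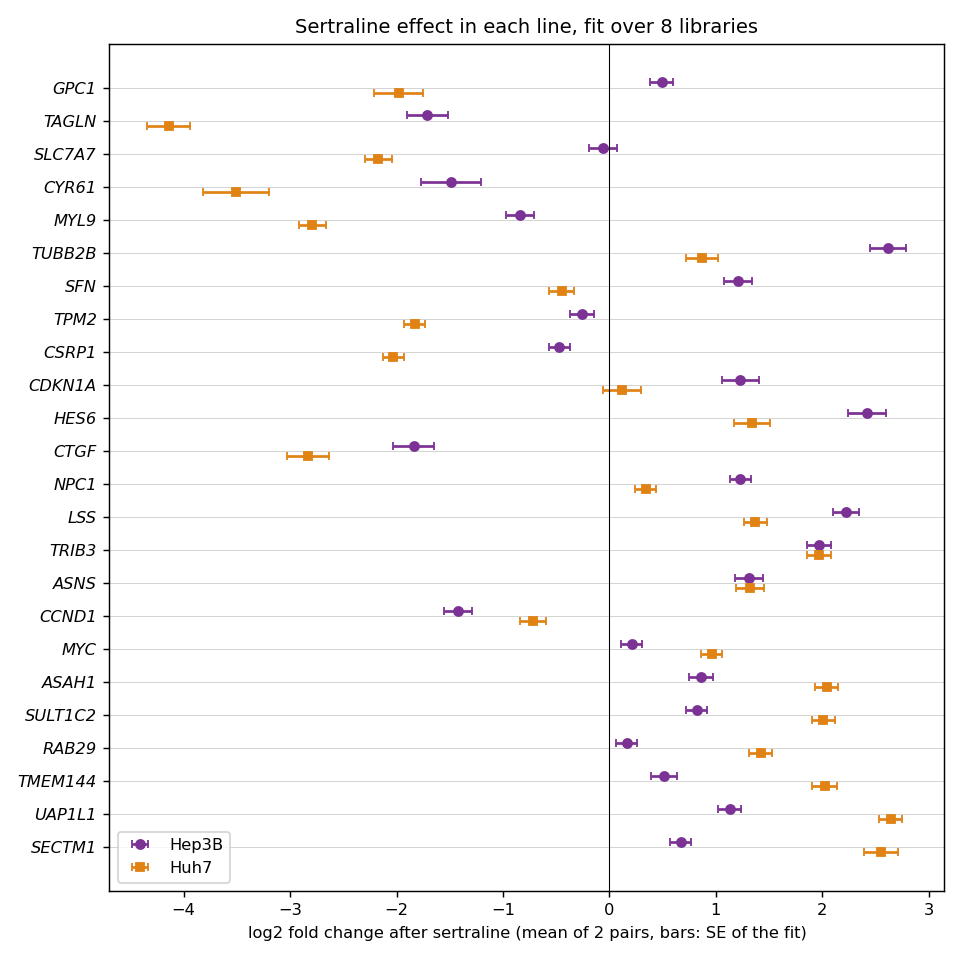
Log2 fold change after sertraline in Hep3B (circles) and Huh7 (squares) from the fit over 8 libraries. The 24 genes are ordered by the difference between lines, and bars give the SE, moderated by the spread of other genes. The largest gaps at the top are those of GPC1, TAGLN and SLC7A7, where Huh7 lies far to the left, and at the bottom those of SECTM1 and UAP1L1, where it lies to the right.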

How the data were processed

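The authors deposited 1 table of raw read counts per gene for the 8 libraries. Per the submitters' processing notes, reads were aligned to GRCh38 (hg38) with HISAT2 and counted with HTSeq; the sources used here give no version, annotation release or strand setting. Overlapping and antisense genes may therefore share reads. The table held 0 columns of other samples.

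Of 31710 genes, 15550 passed edgeR's expression filter and 16160 were removed. Counts were TMM-scaled and fitted with edgeR 4.0.16 (quasi-likelihood, limma 3.58.1, R 4.3.3) with XL413 as a block, leaving 1 residual degree of freedom and a prior of 17.1. Pair ratios used CPM + 0.5. The line difference was fitted over 8 libraries with line-specific terms. DESeq2 1.42.0 and limma voom were alternatives. No replicates exist within a treatment. Promoters matched 32 of 44 genes looked up by name and 840 of 1085 genes of the lists. Figures used Python 3.11.15 and matplotlib 3.10.9.

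The members and the 46 gene lists were chosen with earlier results of these data known. Genes named were the 12 largest changes each way at an average log2 CPM of at least 3, up to 4 members of each list with the smallest p, the 6 clearest line differences and pair differences each way, and a set of drug, line and pathway genes. Further list members, among them those not called and those against the trend of their list, were chosen after their values were seen. Some genes that the rule covers are not reported here.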

Additional observations from a re-analysis of the deposited data

Results flagged for a closer look

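The effect of sertraline differed between Hep3B and Huh7 for 639 genes by the line by sertraline term (edgeR, Benjamini-Hochberg adjusted p under 0.05), and the genes below were among them. Values are log2 differences, Hep3B minus Huh7, from 2 pairs a line; no cause was tested.

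Among actin and YAP genes the difference was 2.43 for TAGLN, 2.02 for CYR61, 1.96 for MYL9, 1.55 for CSRP1 and 0.99 for CTGF, each with a smaller fall in Hep3B, and 1.57 for TPM2, which was not called in Hep3B. Among lipid and sterol genes it was 0.89 for NPC1, 0.88 for LPIN1, 0.85 for LSS, 0.73 for MVD and 0.67 for ACSS2, each with a larger rise in Hep3B. Other genes whose log2 change, not level, was higher in Hep3B were GPC1 (2.48), SLC7A7 (2.12), TUBB2B (1.75), SFN (1.66), CDKN1A (1.11), HES6 (1.08), SLCO4C1 (0.94) and PFKFB4 (0.91).

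The change was lower in Hep3B for SECTM1 (-1.87), UAP1L1 (-1.51), TMEM144 (-1.51), RAB29 (-1.26), SULT1C2 (-1.19), ASAH1 (-1.19), TXNIP (-0.77), MYC (-0.75) and CCND1 (-0.70). The differences of RAB29, SULT1C2 and ASAH1 were no longer called without the Huh7 control or the Huh7 sertraline library, at -1.16, -1.24 and -1.26. Only the 6 clearest differences each way were looked at singly with a library left out. Few of the 639 calls held with either of those libraries left out, so most of the other calls above were lost too.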

How the results depend on the processing

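With 1 library per treatment, 3475 calls (1757 higher, 1718 lower) rest on 2 pairs. With 1 Hep3B library left out they ranged from 1454 to 4724 (higher 780 to 2406, lower 628 to 2318), the spread then coming from Huh7 and the lone library being assumed to vary like the others. The rule that both pairs share a direction was not part of those calls, because only 1 pair was left. The XL413 block forms the 2 pairs, and no further pairing was possible because each treatment has 1 library. DESeq2 called 1579 (818 higher, 761 lower), and adjusted p under 0.01 left 1896 (1018 and 878). Without the XL413 term edgeR called 0 (0 higher, 0 lower; 2504 at an unadjusted p under 0.05). Without the low-count filter it called 0 (0 and 0; 4511 of 27784 unadjusted), and the legacy fit, an alternative chosen after seeing the data, 1522 (938 and 584). Other settings gave 2931 to 4016. Of the genes named for their change, AFP lost its call with DESeq2 size factors (adjusted p = 0.0607) and in the 8-library fit (0.0965), against 0.023 to 0.551 over all its settings. The line difference (639; 378 and 261) was 409 with total count scaling (220 higher), 382 by DESeq2 (250 and 132), and 0 without a filter (0 and 0; 2710 of 31710 unadjusted; legacy fit 721). With 1 library left out it ranged from 13 to 1613 (higher 10 to 887, lower 3 to 726). Pairs over 1 log2 apart numbered 25 with a pseudocount of 2 CPM (5 higher with XL413), against 38. The cause was not tested.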
